A study of Danio rerio with 26 samples.

Results

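Skeletal muscle contractile genes were followed in the skin transcriptomes of adult zebrafish exposed to rotenone, an inhibitor of mitochondrial complex I. The set was named by symbol and held 39 genes. Of these, 28 were found under their symbol in both deposited count tables, which list the same 32105 genes. They sat at 29 identifiers, because MYL1 matched a pair of identifiers. The other 11 names (mylpfa, mylpfb, mylz3, tnnt3a, tnnt3b, tnni2a.4, tnnc1b, ttn.1, ttn.2, casq1a and ryr1b) had no identifier under that symbol in the name table used here, so they were not analysed under those names. The 29 genes comprised 22 fast fibre genes, 4 slow fibre genes (smyhc1, TNNT1, tpm3 and mb) and 3 genes used in both fibre types (smtnl1, NEB and ldb3a).

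The skin RNA came from 26 male fish in 3 groups. A first group of 9 fish was 1 year old and received 3.75 nM rotenone, a second group of 9 fish was 1 year old and received 37.5 nM, and the last group of 8 fish was 3 years old and received 37.5 nM. Both 1-year groups are labelled with the strain AB JxTu. The 3-year fish are labelled AB JxTu Tg(flk:mCherry), a line whose fluorescent transgene is named for flk, the promoter of an endothelial receptor gene. Age and strain therefore cannot be told apart, and the age comparison below is a comparison of both. All fish received rotenone, no untreated fish were analysed, and the 1-year 37.5 nM fish serve in both the age and the concentration comparison. Each library is 1 fish, so p-values measure the spread between fish.

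Skeletal muscle contracts when myosin thick filaments pull on actin thin filaments within repeated units called sarcomeres. Calcium released inside the fibre binds troponin on the thin filament, moves tropomyosin aside and lets myosin bind. Calcium pumps and the buffer parvalbumin then end the contraction. Fast fibres, which make up most of a fish's trunk muscle, use their own myosin, troponin and parvalbumin genes, while slow fibres lie in a thin superficial layer directly beneath the skin and are rich in myoglobin. A skin sample can therefore hold both. In such bulk RNA, a larger amount of muscle in the sample and more muscle RNA per fibre cannot be told apart.

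Each fish had between 25454674 and 35162246 counts over all genes, and no pair of fish had identical values. Markers of the labelled tissue were present in every fish. The summed level of 20 keratinocyte genes ran from 35570 to 88860 CPM, the counts of a gene scaled to the size of its library. The deposited RPKM of krt5, a keratin among these genes, had a median of 11020. Library sizes were scaled by the trimmed mean of M-values (TMM) over all 26 fish. The numbers of the fish in the sample titles fall into a low run of 12 fish, numbered 164 to 181, and a high run of 14 fish, numbered 189 to 202. Each group has 4 fish in the low run, and 5, 5 and 4 fish in the high run. The labels do not say what the runs are. They were treated as a possible batch.

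The contractile genes took up very different shares of the RNA in different fish. In the 1-year 3.75 nM fish the lowest, median and highest shares of all counts were 0.562%, 1.45% and 4.65%. In the 1-year 37.5 nM fish they were 0.451%, 1.21% and 3.13%. In the 3-year fish they were 0.776%, 1.34% and 6.24%. The medians of the groups lay close together while each group held 1 or 2 fish well above its median, and all groups overlapped. The 5 fish above 3% were 3-year replicate 3 (6.24%), 3-year replicate 2 (5.16%), 1-year 3.75 nM replicates 3 (4.65%) and 8 (4.12%) and 1-year 37.5 nM replicate 5 (3.13%). The next fish, 3-year replicate 7, had 2.08%. The 4 slow genes together had shares of 0.0821% to 0.198%, 0.0655% to 0.119% and 0.0933% to 0.299% in the same order of groups. Most of that share was tpm3, whose highest fish had 4.55 times the CPM of its lowest, against 88.5 times for smyhc1, 50.3 times for TNNT1 and 25.8 times for mb, and 19.9 times for the fast gene actc1b. Both 3-year fish with high shares were in the low number run, where the 3-year fish ran from 1.05% to 6.24% (median 3.39%), against 0.776% to 2.08% (median 0.978%) in the high run.

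**Figure D1:**
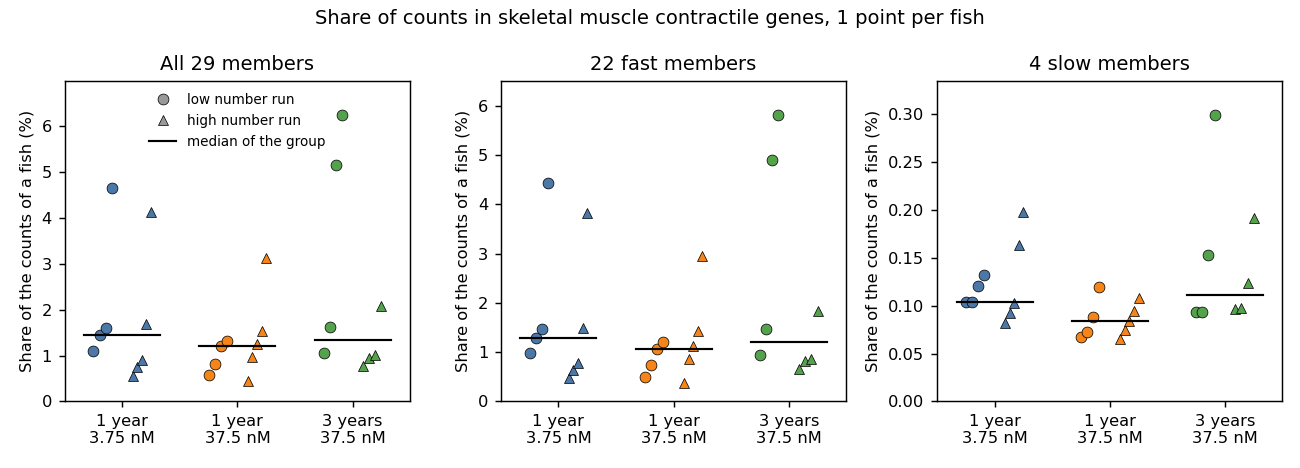
Share of all counts of each fish, in percent, that fell on all 29 contractile genes, on the 22 fast genes and on the 4 slow genes, with 1 point per fish, circles for the low and triangles for the high number run, and a line at the group median. In the 1-year 3.75 nM and 3-year groups a pair of fish, and in the 1-year 37.5 nM group 1 fish, stand far above the median, up to 6.24% in a 3-year fish, and the groups overlap.

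Levels between genes were compared by the deposited RPKM, a value per gene length, as medians over the 26 fish. Among thin filament genes, actc1b (ENSDARG00000099197), an actin of zebrafish muscle, stood highest of all 29 genes with a median RPKM of 1681. The tropomyosins tpma and tpm3 had 302.7 and 177.9, and TNNC2, the fast troponin subunit that binds calcium, had 201.4. The slow troponin T gene TNNT1 had 16.3, and the ACTA1 copies ENSDARG00000055618 and ENSDARG00000036371, which also encode skeletal actin, had 7.26 and 1.43. The thin filament genes thus spanned over 3 orders of magnitude with a single actin at the top.

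Among thick filament genes, the light chain gene MYL1 (ENSDARG00000017441) had a median RPKM of 410.4 and its second copy, ENSDARG00000014196, had 64.3. The slow myosin heavy chain smyhc1 (ENSDARG00000099959) had 16.5. The fast heavy chains in the set were low, with 0.962 for myhz2, 0.872 for myhz1.2, 0.047 for myhz1.3 and 0.0435 for myhz1.1. Outside the set, the heavy chain myhc4 had 185.5. The myhz genes are near-identical copies of each other, as are the actins, and how reads that fit several copies were counted is not given in the sources used here, so the split between copies is uncertain throughout.

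Calcium handling and energy genes stood beside actin. The parvalbumins pvalb4, pvalb3, pvalb2 and pvalb1, small proteins that soak up calcium in fast fibres, had median RPKM of 1435, 443.1, 221.4 and 119.2. The sarcoplasmic calcium pumps atp2a1l and atp2a1 had 312.2 and 194.5. The muscle creatine kinases ckmb and ckma, which regenerate ATP during contraction, had 1001 and 931.6, and the oxygen store mb (myoglobin) had 58.6. Of the scaffold and Z-disc genes, which anchor the filaments, actn3b had 56.0, actn3a 21.3, NEB (nebulin) 10.6, ldb3a 5.59 and myoz1b 1.01. The gene smtnl1 (ENSDARG00000041257), a relative of smoothelin found in smooth and skeletal muscle of mice, had 4.08. Within groups, the standard deviation of log2 CPM over fish was widest for pvalb1 (2.20), the ACTA1 copy ENSDARG00000055618 (2.17) and pvalb2 (1.85), and narrowest for tpm3 (0.385), whose mammalian counterpart also makes tropomyosins outside muscle.

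A single fish, 3-year replicate 3, was the highest of all 26 in 18 of the 29 genes. The 1-year 3.75 nM replicate 3 was highest in 6 (actn3a, myhz1.2, myoz1b, pvalb1, pvalb2 and tpma), 3-year replicate 2 in 3 (both ACTA1 copies and myhz1.3) and 1-year 3.75 nM replicate 8 in 2 (myhz1.1 and smyhc1). At the other end, 1-year 37.5 nM replicate 8 was the lowest fish in 12 genes. Copies of a protein could differ in this, since pvalb3, pvalb4 and myhz2 were highest in 3-year replicate 3 and pvalb1, pvalb2 and the myhz1 genes in other fish.

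**Figure D2:**
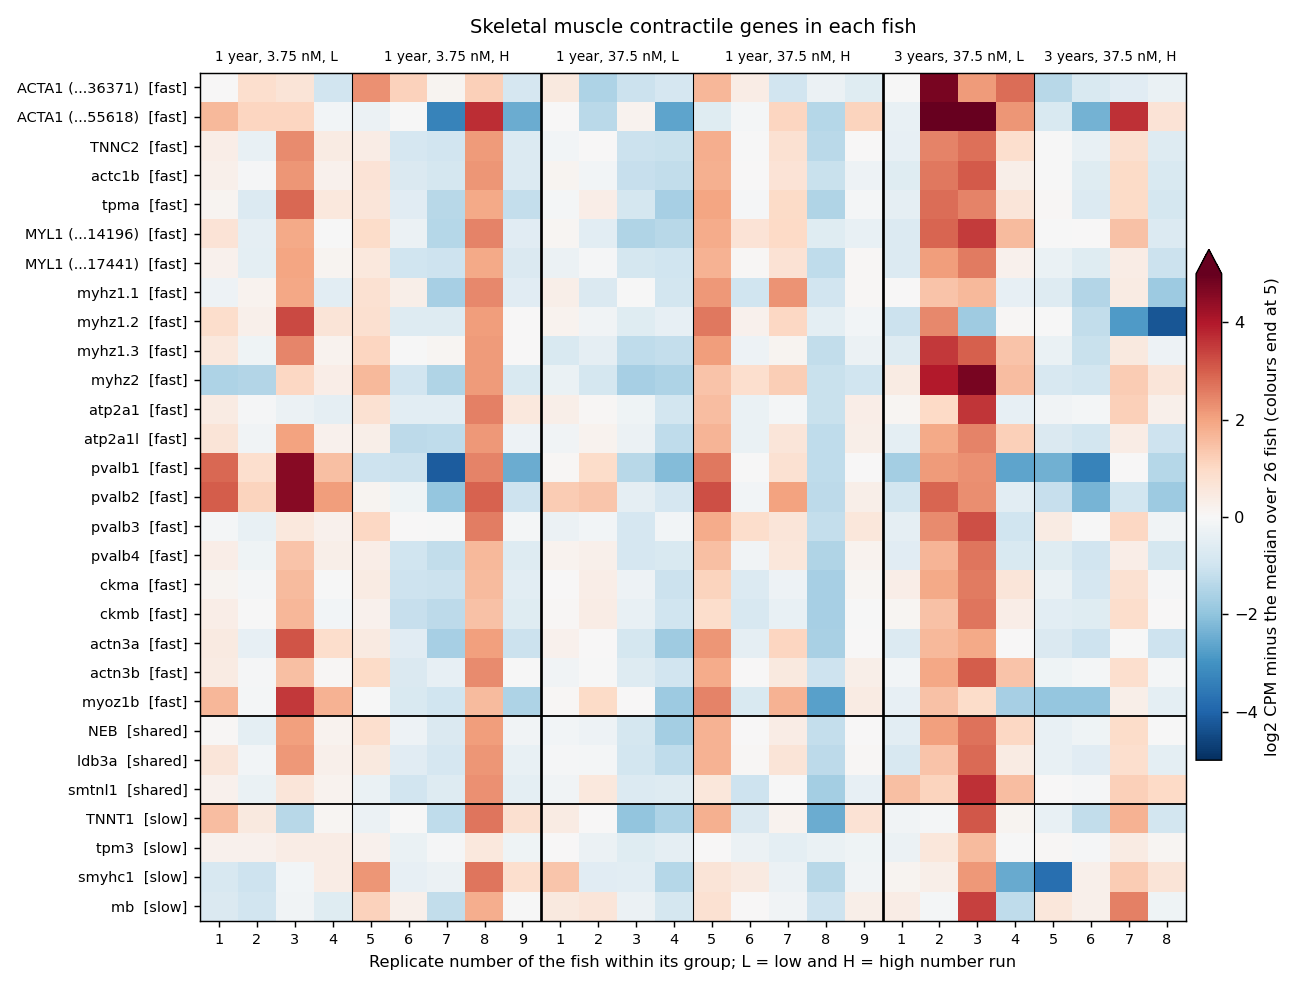
Level of each of the 29 contractile genes in each fish as log2 CPM minus that gene's median over the 26 fish, with genes in rows by fibre type, fish in columns by group and number run, and colours that end at 5. Red columns mark the fish with high muscle RNA, such as 3-year replicate 3, which was highest in 18 genes, and the row of tpm3 is the palest.

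The high fish did not share 1 fibre makeup. The mean log2 CPM of the fast genes minus that of the slow genes ran from -1.47 to 2.05 over the 26 fish, with a median of -0.34. In 1-year 3.75 nM replicate 3 it was 2.05 and in 3-year replicate 2 it was 1.96. In 3-year replicate 3 it was -0.36 and in 1-year 3.75 nM replicate 8 it was -0.14. By these means, the first pair of fish was high in fast genes with slow genes near the level of other fish, and the second pair was high in both. The remaining fish above 3%, 1-year 37.5 nM replicate 5, lay between these pairs at 0.62. These differences depend on tpm3, which varied least between fish. Without tpm3 the slow mean was 8.56 in 3-year replicate 3 and 8.04 in 1-year 3.75 nM replicate 8. Both values lay below the fast means of these fish, 8.87 and 8.43. In 1-year 3.75 nM replicate 3 and 3-year replicate 2 the slow mean without tpm3 was 5.08 and 5.69, against fast means of 8.36 and 8.78.

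The same contrast showed in single genes. In 1-year 3.75 nM replicate 3, actc1b reached 9708 CPM while smyhc1, mb and TNNT1 were at 92.8, 71.1 and 5.75 CPM. Not every fast gene was high in this fish. The pump atp2a1 at 668 CPM lay far below its paralog atp2a1l at 4111 CPM and below its own median over the 26 fish, 813.1 CPM. In 3-year replicate 2, actc1b was at 13290 CPM with TNNT1 at 14.2 and mb at 76.1 CPM. In 3-year replicate 3, actc1b was at 17740 CPM, mb at 865.8 CPM and TNNT1 at 133.6 CPM. These values describe fish that were picked out by their levels, and no test was applied to them.

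**Figure D3:**
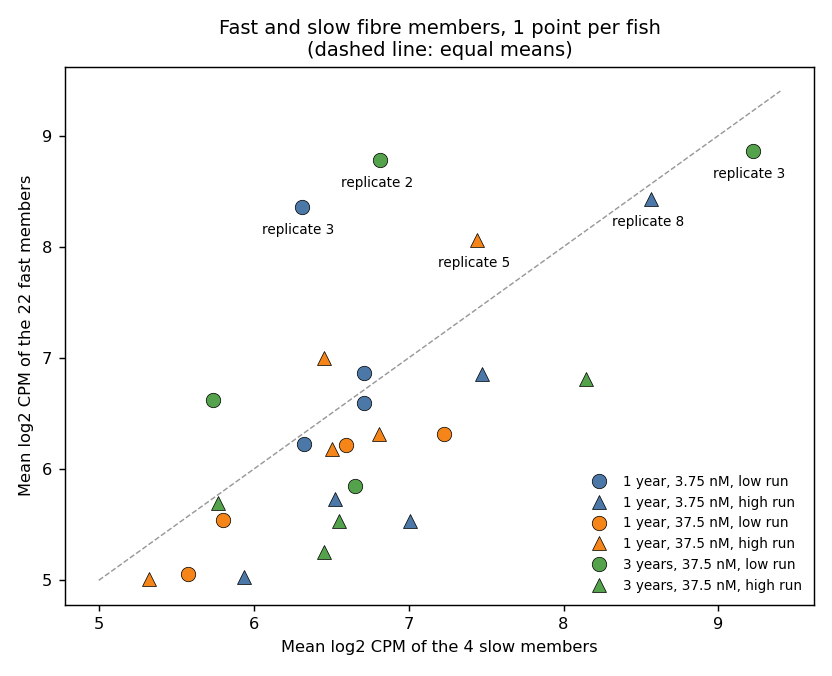
Mean log2 CPM of the 22 fast genes (vertical axis) against that of the 4 slow genes (horizontal axis), 1 point per fish, with colours for groups, shapes for number runs and a dashed line of equal means. Of the 5 labelled fish with over 3% of counts in contractile genes, 1-year 3.75 nM replicate 3 and 3-year replicate 2 lie about 2.05 and 1.96 above the line. The 1-year 37.5 nM replicate 5 lies about 0.62 above it, and 3-year replicate 3 and 1-year 3.75 nM replicate 8 lie just below it. Without tpm3 in the slow mean, this last pair of fish would lie above the line.

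By group, the levels of the main genes overlapped widely. The lowest, median and highest CPM of actc1b were 1157, 2437 and 9708 in 1-year 3.75 nM fish, 892.5, 1913 and 7263 in 1-year 37.5 nM fish, and 1230, 2344 and 17740 in 3-year fish. For ckma they were 683.9, 1441 and 4375, then 453.9, 1213 and 3101, then 802.6, 2022 and 8703. For the pump atp2a1 they were 557.2, 779.1 and 4637, then 372.2, 763.4 and 2378, then 603.8, 920.4 and 9777. In all 3 genes the group medians differed far less than the fish within a group.

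For 3 of the 4 parvalbumins the group medians had another order. The lowest, median and highest CPM of pvalb2 were 66.8, 554.8 and 6076 in 1-year 3.75 nM fish, 103.2, 318.4 and 2380 in 1-year 37.5 nM fish, and 51.7, 136.5 and 1934 in 3-year fish. Those of pvalb1 were 5.83, 188.3 and 2510, then 23.2, 108.6 and 654.9, then 10.3, 35.9 and 515.7. Those of pvalb4 were 411.2, 1156 and 2920, then 336.3, 1072 and 2680, then 498.1, 629.4 and 6133. For these 3, the 3-year median was the lowest of the group medians, while that of pvalb3 was the highest (334.3, 306.5 and 385.6 CPM in the same order), and the ranges overlapped. This order was not particular to parvalbumins, as the medians of actn3a (91.7, 67.3 and 54.15 CPM) and myhz1.2 (7.83, 4.46 and 2.18 CPM) had it too. For pvalb4 the fitted age difference below was positive, with a log2 fold change of 0.65, and was not called.

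For the slow heavy chain smyhc1 the lowest, median and highest CPM were 49.7, 92.8 and 650.2 in 1-year 3.75 nM fish, 37.8, 83.6 and 264.6 in 1-year 37.5 nM fish, and 7.35, 123.7 and 459.1 in 3-year fish. Those of mb were 34.3, 71.1 and 282.1, then 39.1, 81.3 and 134.7, then 33.6, 100.5 and 865.8. Those of TNNT1 were 5.75, 16.6 and 98.6, then 2.65, 15.7 and 52.5, then 6.49, 13.9 and 133.6. Slow genes overlapped between the groups as the fast ones did.

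**Figure D4:**
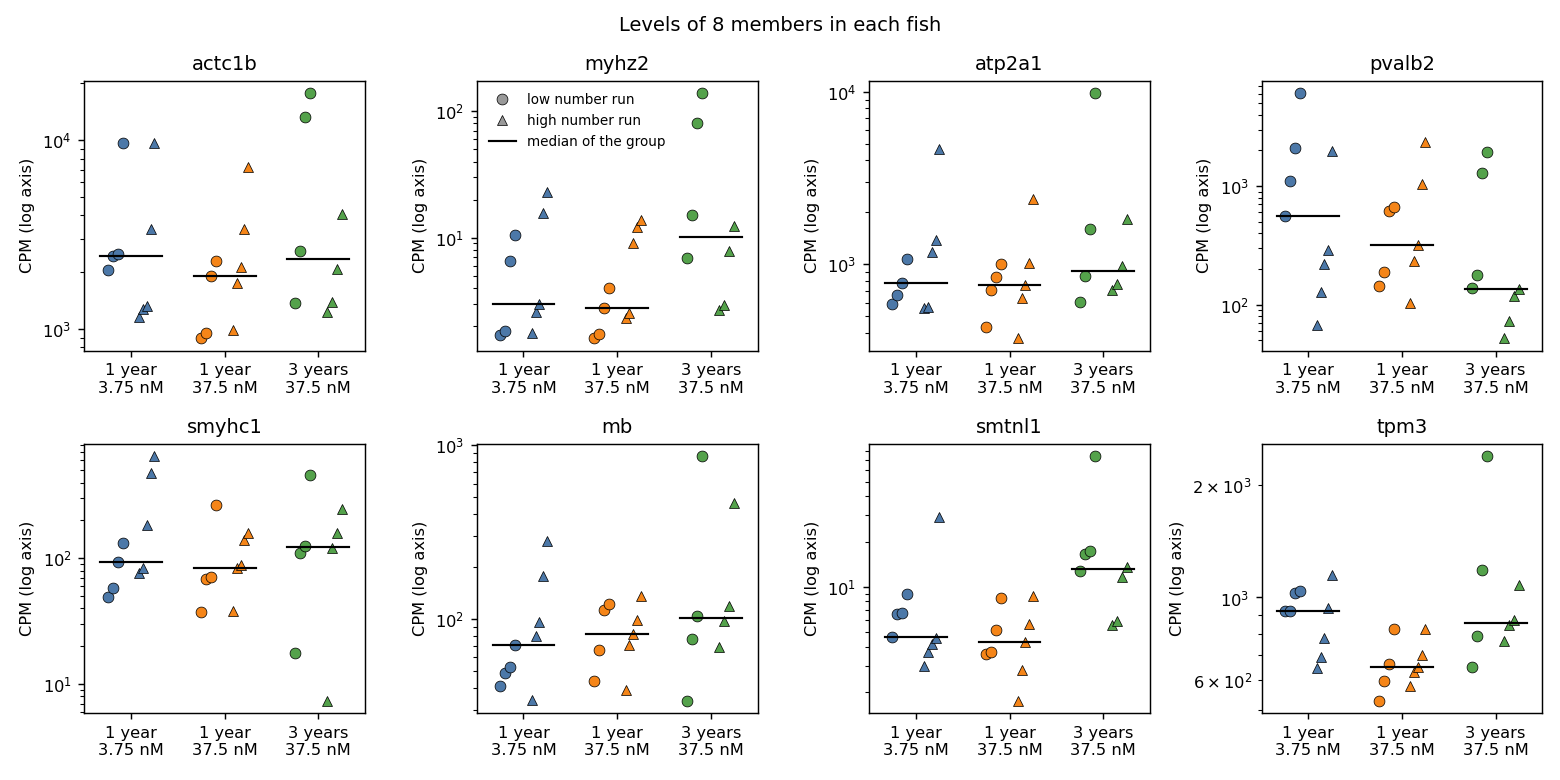
CPM on a log axis of 8 contractile genes in each fish by group, with circles for the low and triangles for the high number run and a line at each group's median. Groups overlap in all 8 panels; smtnl1 lies highest in the 3-year fish, with a median of 13.1 CPM, and tpm3 lowest in the 1-year 37.5 nM fish, with a median of 650 CPM.

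The age comparison set the 8 fish of 3 years against the 9 fish of 1 year at the same 37.5 nM. It was fitted over all genes with edgeR's quasi-likelihood test, and a gene was called at a Benjamini-Hochberg adjusted p below 0.05. Of the 29 contractile genes, 27 passed the filter on low counts (myhz1.1 and myhz1.3 did not). The gene called was smtnl1, which rose in 3-year fish, and no contractile gene was called lower. Over all 18935 genes tested, 1.27% were called and 0.676% were called higher. The smtnl1 level was 19.6 ± 22.3 CPM (SD, n = 8) against 4.90 ± 2.37 CPM (SD, n = 9).

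The values of smtnl1 in 3-year fish were 16.4, 12.8, 73.9 and 17.3 CPM in the low run and 5.93, 5.6, 13.5 and 11.7 CPM in the high run. In the 1-year 37.5 nM fish they were 5.19, 8.39, 3.56 and 3.69 CPM in the low run and 8.67, 2.79, 5.69, 1.74 and 4.34 CPM in the high run. Of the 8 fish of 3 years, 6 lay above the highest 1-year fish, and the 3-year fish was the higher of the pair in 93.1% of pairs, so the groups overlapped little. The log2 fold change was 2.02 ± 0.48 (SE) with an edgeR adjusted p of 0.0448. Without 3-year replicate 3, the highest fish, it was 1.301 with an adjusted p of 0.0473. With the number run as a covariate the call was lost, with a log2 fold change of 1.75 and an edgeR adjusted p of 0.0543. The call was also lost in 13 of the 17 fits that each left out 1 fish, where the edgeR adjusted p ranged from 0.0214 to 0.0884. Over all genes, those fits called from 64 genes (without 1-year 37.5 nM replicate 8) to 712 (without 3-year replicate 6). Without the 3 fish of this comparison above 3% of counts, the log2 fold change of smtnl1 was 1.41 with an edgeR adjusted p of 0.0786.

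The remaining genes did not pass the threshold, although 23 of the 27 had a positive log2 fold change and their median was 0.99, against 0.03 over all genes tested. At an unadjusted p below 0.05 there were 11 of the 27, against 20.4% of all genes. Many of these genes were high in the same fish, as 3-year replicate 3 was highest in 18 of the 29. Here and below, counts of signs or p-values over the genes are therefore not counts of separate observations. Without the 3 fish above 3% of counts the median was 0.37, and 20 values were positive and 7 negative. In that fit 5 had an unadjusted p below 0.05, against 2902 of 19078 genes. Those fish were picked by the levels of these same genes, so part of the shift of the median was built in by the choice. The ACTA1 copy ENSDARG00000055618 had lowest, median and highest levels of 1.81, 30.2 and 526.8 CPM in 3-year fish and 1.49, 8.99 and 21.3 CPM in 1-year fish, a log2 fold change of 3.84 ± 0.97 (SE) and an edgeR adjusted p of 0.0601. Its 4 highest 3-year fish lay above all 1-year 37.5 nM fish and the others lay among them. For myhz2 the levels were 2.64, 10.1 and 138.8 CPM against 1.59, 2.78 and 13.9 CPM, with a log2 fold change of 2.61 ± 0.80 (SE) and an edgeR adjusted p of 0.101. The second ACTA1 copy, ENSDARG00000036371, had levels of 1.06, 2.57 and 80.1 CPM against 0.94, 1.86 and 9.22 CPM and a log2 fold change of 2.41 ± 0.82 (SE) with an edgeR adjusted p of 0.128. With DESeq2, 5 contractile genes were called higher (smtnl1, both ACTA1 copies, myhz2 and tpm3), against 3.13% of all genes.

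By role, the thin filament genes had positive age differences in 7 of 7, with a median log2 fold change of 1.06. The energy genes were positive in 3 of 3 (ckma and ckmb both 1.14, mb 1.43). Of the 5 thick filament genes tested, 4 were positive, as were 4 of the 5 scaffold and Z-disc genes and 4 of the 6 calcium genes. The genes with a negative value were pvalb1 (-0.09), pvalb2 (-0.35), myhz1.2 (-0.54) and myoz1b (-0.74). The slow genes tpm3 (0.70) and mb (1.43) had edgeR adjusted p-values of 0.11 and 0.166, smyhc1 (0.57) one of 0.599 and TNNT1 (0.94) one of 0.431.

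The age difference was not alike in the 2 number runs. Within the low run, with 4 fish against 4, all 27 log2 fold changes were positive with a median of 2.07, and 19 had an unadjusted p below 0.05, against 18.9% of all genes. Within the high run, with 4 fish against 5, 8 were positive and 19 negative with a median of -0.44, and 4 had an unadjusted p below 0.05, against 16.9% of all genes. With edgeR no contractile gene was called within either run. Over all genes, 34 of 18977 were called in the low run and 19 of 19092 in the high run. For the fast genes the median was 2.13 among low-run and -0.60 among high-run fish, and for the 4 slow genes it was 1.33 and 0.40. The difference for smtnl1 was 2.56 ± 0.63 (SE) in the low run with an edgeR adjusted p of 0.15 and 0.98 ± 0.45 (SE) in the high run with an edgeR adjusted p of 0.305.

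In the low run actc1b had lowest, median and highest levels of 1377, 7941 and 17740 CPM in 3-year fish and 892.5, 1431 and 2301 CPM in 1-year 37.5 nM fish. In the high run these were 1230, 1739 and 4078 CPM against 984.9, 2132 and 7263 CPM. By median the 3-year fish were thus higher in the low run and lower in the high run, and the ranges overlapped in both. For pvalb2 the low run gave 137.9, 730.2 and 1934 CPM against 143.2, 402.1 and 671.4 CPM, and the high run 51.7, 94.8 and 135.1 CPM against 103.2, 318.4 and 2380 CPM.

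The difference between the runs was tested as an interaction, the age difference in the high run minus that in the low run. All 29 contractile genes were tested, all 29 had a negative estimate, and the median was -2.92, with -2.95 for the fast and -0.52 for the slow genes. As many of these genes were high in the same fish, they are not 29 separate observations. None was called with edgeR, as none of all genes was (0%), while 21 of the 29 had an unadjusted p below 0.05 against 16.4% of all genes. With DESeq2, 12 of the 29 were called lower, against 1.94% of all genes. The largest estimates were -4.98 ± 1.14 (SE) for the ACTA1 copy ENSDARG00000036371, with an edgeR adjusted p of 0.0891, and -4.87 ± 1.17 (SE) for myhz2, with an edgeR adjusted p of 0.0998. Without the 3 of these 17 fish above 3% of counts, the median was -0.57, and 9 estimates were positive and 20 negative. In that fit 2 had an unadjusted p below 0.05, against 1604 of 20496 genes. Those fish were picked by the levels of these same genes, so part of the shift was built in by the choice.

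**Figure D5:**
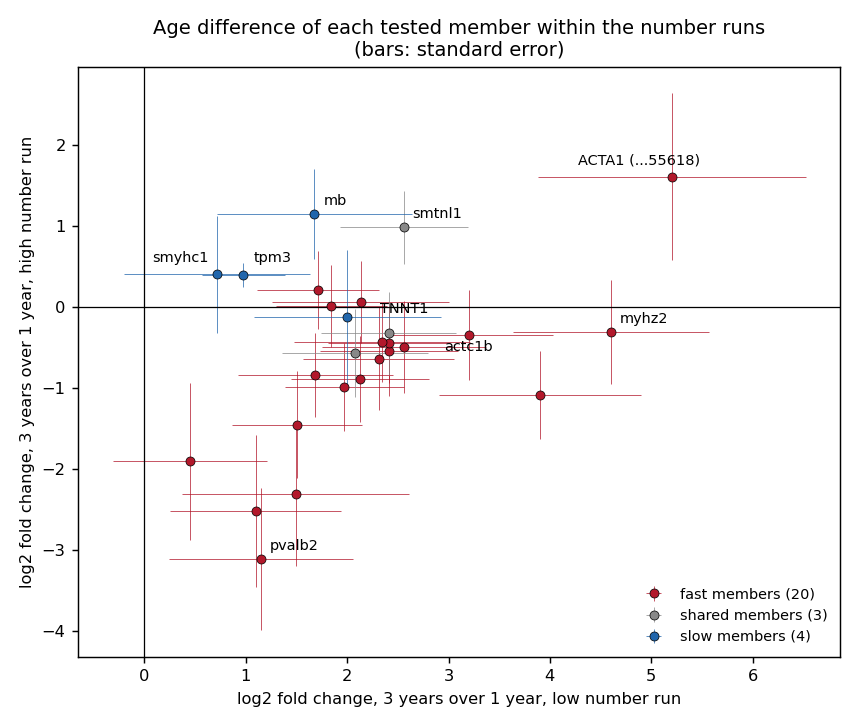
Log2 fold change of 3-year over 1-year fish at 37.5 nM for each of the 27 tested contractile genes, within the low number run (horizontal axis) and the high number run (vertical axis), with standard error bars and colours by fibre type. All 27 lie right of 0 on the horizontal axis, while 19 lie below 0 on the vertical axis.

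The concentration comparison set the 9 fish at 37.5 nM against the 9 fish at 3.75 nM, all 1 year old and of the same strain label. The fish at 3.75 nM were deposited as a set apart from all fish at 37.5 nM. Concentration and deposited set therefore cannot be told apart, and the comparison is one of both. Of 27 contractile genes tested, tpm3 fell at 37.5 nM and none was called higher. Over all 18793 genes tested, 4.28% were called and 3% were called lower. The lowest, median and highest levels of tpm3 (ENSDARG00000005162) were 527.1, 650.0 and 823.2 CPM at 37.5 nM and 645.0, 922.8 and 1146 CPM at 3.75 nM. Of the 9 fish at 3.75 nM, 6 lay above the highest fish at 37.5 nM, and the rest overlapped.

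The means of tpm3 were 666 ± 102 CPM (SD, n = 9) and 901 ± 166 CPM (SD, n = 9). Its log2 fold change was -0.44 ± 0.12 (SE) with an edgeR adjusted p of 0.0486, and DESeq2 called it as well. It was called in 4 of the 18 fits that each left out 1 fish, where the edgeR adjusted p ranged from 0.0199 to 0.0929. Over all genes, those fits called from 0 genes (without 1-year 37.5 nM replicate 7) to 1661 (without 1-year 3.75 nM replicate 9). The log2 fold change of tpm3 ran from -0.525 to -0.394 in them. Without the 3 fish of this comparison above 3% of counts it was -0.40 with an adjusted p of 0.103.

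All 27 contractile genes had a negative concentration difference, with a median log2 fold change of -0.63 against -0.01 over all genes tested. Besides tpm3, no gene had an unadjusted p below 0.05, so the count was 1 of 27 against 22.9% of all genes. Without those 3 fish, which were picked by the levels of these same genes, the median was -0.17, with 4 positive and 23 negative values. Without 1-year 3.75 nM replicate 8 alone, the values of 5 genes turned positive (myhz2 0.02, atp2a1 0.08, pvalb4 0.02, mb 0.18 and pvalb3 0.20). Over all 18 fish, estimates ran from -1.62 for pvalb1 to -0.20 for mb. By role, the medians were -0.64 for thin filament, -0.57 for thick filament, -0.51 for calcium, -0.50 for energy and -0.67 for scaffold and Z-disc genes.

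Within the low number run, with 4 fish against 4, pvalb1, pvalb2 and tpm3 fell at 37.5 nM, 3 of 27 genes against 13.8% of all genes called lower there. At an unadjusted p below 0.05 there were 15 of 27, against 38.9% of all genes. The lowest, median and highest levels of pvalb2 were 143.2, 402.1 and 671.4 CPM at 37.5 nM and 554.8, 1609 and 6076 CPM at 3.75 nM, which overlap narrowly. Its log2 fold change was -2.62 ± 0.82 (SE) with an edgeR adjusted p of 0.0445. That of pvalb1 was -3.36 ± 0.98 (SE) with an edgeR adjusted p of 0.0347, and that of tpm3 -0.59 ± 0.15 (SE) with an edgeR adjusted p of 0.0174. In the high run the median over 28 genes was -0.17, with 10 positive and 18 negative values. Over all 18929 genes tested there, 0 were called with edgeR. Only 1 contractile gene, smyhc1 (-1.545), had an unadjusted p below 0.05, against 995 of all genes. In that run tpm3 had -0.32 ± 0.18 (SE) with an edgeR adjusted p of 0.954.

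As an interaction with the number run, the concentration difference gave no call with edgeR among 29 contractile genes, against 5.71% of all genes, and none with DESeq2. The estimates were positive in 25 and negative in 4, with a median of 1.21, and 4 had an unadjusted p below 0.05 against 21% of all genes. These were pvalb1 (3.96 ± 1.65, SE), pvalb2 (3.23 ± 1.46, SE), myoz1b (3.26 ± 1.32, SE) and myhz1.2 (2.51 ± 1.07, SE).

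The number runs themselves, compared over all 26 fish with the group in the model, gave no edgeR call among 29 contractile genes, against 14.3% of all genes. None had an unadjusted p below 0.05, against 29.5% of all genes. DESeq2 called 1, pvalb2, lower in the high run, against 1956 of 19784 genes. The median log2 fold change, high over low run, was -0.38, with -0.45 for the fast and 0.19 for the slow genes. Within the 3-year group all 28 genes tested had a negative value, with a median of -1.82, and 17 had an unadjusted p below 0.05 against 11.6% of all genes. Within the 1-year 37.5 nM group 24 of 27 were positive with a median of 1.05, and within the 1-year 3.75 nM group 12 of 29 were positive with a median of -0.28.

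Copies of the same protein did not keep a fixed ratio across fish. The ratio of atp2a1 to atp2a1l in CPM ran from 0.163 in 1-year 3.75 nM replicate 3 to 1.96 in 3-year replicate 8, with a median of 0.945, and exceeded 1 in 13 of 26 fish. The ratio of ckma to ckmb was far steadier, from 0.733 to 1.18 with a median of 0.924. The ratio of pvalb2 to pvalb3 ran from 2.16 to 12.5 in the 4 fish of the 1-year 3.75 nM low run and from 0.204 to 0.996 in the 5 fish of its high run, which did not overlap. The runs overlapped in the 1-year 37.5 nM group, with 0.467 to 2.29 in the low and 0.379 to 2.03 in the high run. In the 3-year group the low run had 0.409 to 1.13 and the high run 0.156 to 0.266, again apart. The ratio of myhz1.2 to myhz2 had medians of 1.69, 1.59 and 0.333 in the 1-year 3.75 nM, 1-year 37.5 nM and 3-year groups and exceeded 1 in 7 of 9, 7 of 9 and 1 of 8 fish. These ratios were chosen after their values were seen and carry no test.

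Across the 26 fish, with group means removed, 7 relations between log2 levels were computed, with permutation p-values adjusted over the 7. The fast heavy chain myhz2 followed ckma, with a Pearson r of 0.796 (adjusted permutation p = 7e-05) and a Spearman rho of 0.717 (adjusted permutation p = 0.00028). Without the 2 fish farthest from the median of myhz2, r was 0.712, and it was 0.854 in the low and 0.814 in the high run. The slow heavy chain smyhc1 was also related to myhz2, with r = 0.616 (adjusted permutation p = 0.00154), rho = 0.634 (adjusted permutation p = 0.0021) and r = 0.561 without 2 fish. In the runs r was 0.647 and 0.720. The level of myhz2 was low, with a median RPKM of 0.962, and the heavy chain myhc4, at 185.5, was not put in a relation.

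The actin gene actc1b followed kdrl, an endothelial receptor gene, with r = 0.746 (adjusted permutation p = 7e-05) and rho = 0.705 (adjusted permutation p = 0.00028), and r was 0.798 without 2 fish. It was 0.688 in the low and 0.797 in the high run, and without 2 fish 0.409 and 0.595. With acta2, a smooth muscle actin whose reads may be shared with other actins, r was 0.483 (adjusted permutation p = 0.0208) and rho 0.447 (adjusted permutation p = 0.0326), with 0.379 without 2 fish and 0.519 and 0.631 in the runs. With smyhc1, r was 0.466 (adjusted permutation p = 0.0211) and rho 0.456 (adjusted permutation p = 0.0326), with 0.37 without 2 fish and 0.593 and 0.525 in the runs.

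Over all 26 fish, no relation of actc1b with the skin markers passed. For actc1b and the superficial keratin krt4, r was -0.099 (adjusted permutation p = 0.628) and rho -0.116 (adjusted permutation p = 0.569), with r of -0.382 and -0.325 in the runs and 0.015 without 2 fish. For actc1b and the collagen col1a1a, r was 0.248 (adjusted permutation p = 0.257) and rho 0.279 (adjusted permutation p = 0.194), with 0.321 without 2 fish. In the low run alone the relation with col1a1a had r = 0.613 (adjusted permutation p = 0.0575) and rho = 0.776 (adjusted permutation p = 0.0148), and in the high run r = 0.286 (adjusted permutation p = 0.326).

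Other genes of the muscle programme, from lists made by symbol, were measured beside the 29. Of 94 other sarcomere and triad genes, 88 were tested for age and none was called with edgeR, against 1.27% of all genes. Of the 88, 37 had an unadjusted p below 0.05, against 20.4% of all genes, and 82 were positive with a median log2 fold change of 0.90. For concentration, 82 of 88 were negative with a median of -0.55. None was called with edgeR, against 4.28% of all genes, and 9 had an unadjusted p below 0.05, against 22.9%. In the interaction of age with the number run, 89 of 90 were negative with a median of -2.07 and none was called with edgeR. There, 47 had an unadjusted p below 0.05, against 16.4% of all genes. The direction of these genes was thus that of the 29 genes in each of these 3 comparisons. Both sets are muscle genes measured in the same fish, so the shared direction is not separate support. Between the number runs 38 were positive and 52 negative with a median of -0.05. The 29 genes had 7 positive and 22 negative values there, with a median of -0.38. In the comparison of the runs, asph rose (0.42 ± 0.14, SE, edgeR adjusted p of 0.0427) and capza1b, an actin capping subunit, fell (-0.44 ± 0.11, SE, edgeR adjusted p of 0.0108) in the high run. In the interaction of concentration with the run, the troponin T gene tnnt2d had a called difference of -3.12 ± 0.83 (SE, edgeR adjusted p of 0.0364) and capza1b one of 0.66 ± 0.18 (SE, edgeR adjusted p of 0.0409). Over all genes, 14.3% were called between the runs and 5.71% in this interaction. The gene asph is known in mammals to give rise to junctin, a protein of the calcium release unit, among other products.

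Of 23 myogenic factors, 22 were tested for age and none was called with edgeR, against 1.27% of all genes. Of the 22, 5 had an unadjusted p below 0.05, against 20.4% of all genes, and 21 were positive with a median of 0.67. For concentration, 19 were tested, with 6 positive and 13 negative values and a median of -0.18. Of these, 3 had an unadjusted p below 0.05, against 22.9% of all genes, and 1 was called, against 4.28% of all genes. This was UNC45B, a chaperone that folds muscle myosin, which fell at 37.5 nM, with 8.17 ± 2.91 CPM (SD, n = 9) against 21.4 ± 14.6 CPM (SD, n = 9). Its log2 fold change was -1.40 ± 0.34 (SE) with an edgeR adjusted p of 0.0355. It was also called lower in the high than in the low run, with -1.02 ± 0.33 (SE) and an edgeR adjusted p of 0.0404. The 17 genes that share a symbol stem with an unmatched name, 10 of them also in the sarcomere and triad list, such as MYL11 (ENSDARG00000053254) with a median of 1151 CPM, were positive for age in 14 of 14 tested with a median of 0.88. None of the 14 was called with edgeR and 4 had an unadjusted p below 0.05, against 20.4% of all genes.

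Markers of other cell types were read in the same fits. Of the cardiac markers, MYL7 had 0 counts in 17 of 26 fish and at most 22 counts, and nppa, nppb, cmlc1 and gata4 had 0 counts in 19, 23, 22 and 13 fish. The other cardiac markers (MYH6, MYH7, myh6, HAND2 and both TNNT2 copies) had counts in every fish. Their highest levels included 38.0 CPM for MYH6, 28.1 CPM for TNNT2 (ENSDARG00000100694) and 10.6 CPM for MYH7. The summed CPM of 11 cardiac markers ran from 4.37 to 74.9, highest in 3-year replicate 3, the fish that was also highest in most contractile genes. For age, 1 of 19 keratinocyte markers was called higher, against 0.676% of all genes, and 5 had an unadjusted p below 0.05, against 20.4%. The marker called was cyt1, a keratin of low level with a median of 0.579 CPM and a range of 0.210 to 10.7 CPM (3.25 ± 0.72, SE, edgeR adjusted p of 0.0365). None of 14 fibroblast, 7 endothelial, 10 smooth muscle, 10 tenocyte, 4 erythrocyte or 5 cardiac markers was called with edgeR (0, 0, 1, 1, 0 and 1 of them had an unadjusted p below 0.05). The tenocyte count leaves out both XIRP2 copies, which the list of sarcomere genes also holds. The 5 cardiac markers tested for age were positive in 4, with a median of 1.16, against 0.99 for the contractile genes. For concentration none of these markers was called with edgeR, with 3 keratinocyte, 1 smooth muscle and 2 cardiac markers at an unadjusted p below 0.05, against 22.9% of all genes.

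Summed levels of the other cell types overlapped between the groups. The endothelial sum ran from 127 to 268 CPM in 1-year 3.75 nM fish, 120 to 255 CPM in 1-year 37.5 nM fish and 125 to 428 CPM in 3-year fish, highest in 3-year replicate 3. The fibroblast sum ran from 4136 to 46080, 2206 to 52430 and 4355 to 31450 CPM, and the tenocyte sum, XIRP2 included, from 754 to 2113, 479 to 1397 and 600 to 1981 CPM. The smooth muscle sum ran from 546 to 780, 484 to 633 and 444 to 774 CPM. In the comparison of the runs, 6 of 14 fibroblast markers were called higher in the high run, against 1329 of 19784 genes. No contractile gene was called there with edgeR. In the interaction of age with the run, 14 of 14 fibroblast, 7 of 7 endothelial and, without XIRP2, 9 of 10 tenocyte markers were negative, with medians of -1.28, -1.18 and -1.65, as the contractile genes were. So were 10 of 11 smooth muscle, 3 of 4 erythrocyte and 4 of 6 cardiac markers, with medians of -0.78, -2.38 and -1.75. Keratinocyte markers went the other way, with 14 of 20 positive and a median of 0.30. The part of these cell types in the differences of the contractile genes was not tested.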

How the data were processed

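RNA-seq of whole skin samples was taken as deposited: the authors deposited raw gene counts and RPKM for 26 fish. The submitters' processing notes name CASAVA 1.8.2, STAR 2.4.1d, featureCounts 1.4.6-p4 and GRCz10; the handling of reads that fit several genes is not given in the sources used here, and the library kit, TruSeq v2 per the labels, does not mark strand. In the RPKM that the authors deposited, the library total is not each fish's own, so they served for levels between genes alone. Groups came from the labels. Counts were tested with edgeR 4.0.16 in R 4.3.3 (TMM, filterByExpr, robust quasi-likelihood, Benjamini-Hochberg over all genes tested), each comparison on its own fish, and steps were tested on simulated data. CPM are TMM-scaled over 26 fish and log2 CPM used a prior count of 2. Relations used 100000 permutations, whose smallest possible p is 1e-05; a relation planned with mylpfa could not be run. The members and all gene lists were chosen with earlier results of these data known, and no p was adjusted over a list alone. By rule, levels per group or fish were given for actc1b, both ACTA1 copies, myhz2, ckma, atp2a1, pvalb4, smtnl1, the slow members and every called member (mylpfa, ttn.1 and tnnc1b were unmatched), and from the other muscle lists for called genes; pvalb1, pvalb2 and the copy ratios were added after their values were seen. Alternatives were DESeq2 1.42.0, other scalings, no filter, the number runs, 1 fit of 26 fish and leaving out each fish. Leaving out the fish of a comparison among the 5 above 3% of counts in members was chosen after seeing the data. Those fish were picked by the members' own counts, so smaller member differences were partly built into these fits.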

Additional observations from a re-analysis of the deposited data

Results flagged for a closer look

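In 39 sets of values, each 1 measure in 1 group of fish, the highest and lowest fish were compared with the rest of their group by Dixon's gap test, which chance passes in about 1 of 20 groups. The test used log2 CPM for the genes but the plain percentage for the share of counts, so gaps on the 2 scales are not alike. It singled out 6 values, all of them the highest fish of a group. The calcium pump gene atp2a1 was at 9777 CPM in 3-year replicate 3, where the next fish had 1836 CPM, and at 4637 CPM in 1-year 3.75 nM replicate 8, where the next had 1383 CPM. The gene smtnl1 was at 73.88 CPM in the same 3-year fish (next 17.26 CPM) and at 28.92 CPM in the same 1-year 3.75 nM fish (next 8.925 CPM). The tropomyosin gene tpm3 was at 2397 CPM in 3-year replicate 3 (next 1185 CPM). The share of counts in all 29 contractile genes was 3.134% in 1-year 37.5 nM replicate 5 (next 1.531%).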

How the results depend on the processing

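No paired analysis was possible because the labels give no replicate numbers that tie fish of different groups. The count of contractile genes called for age, 1 with edgeR, became 5 with DESeq2 and 2 with all 26 fish in 1 fit. Over all genes, in both directions, these fits called 241, 1076 and 316. The count was 0 within the low run and within the high run, against 34 and 19 of all genes. With the number run as a covariate it was 0 against 398. Without the 3 of its fish above 3% of counts it was 0 against 75. Leaving out each fish gave 0 to 2, against 64 to 712 of all genes. The concentration count, 1 against 804 of all genes, became 3 against 5024 within the low run and 0 against 0 within the high run. It was 0 with no filter (against 209), with all 26 fish in 1 fit (1042) and without its own 3 such fish (252). Leaving out each fish gave 0 to 1, against 0 to 1661 of all genes. DESeq2 called 1 contractile gene between the runs, against 3748 of all genes, and 12 in the interaction of age with the run, against 699. Leaving out each fish gave 0 to 5 in that interaction with edgeR (5 without 3-year replicate 1, against 202 of all genes). The interaction of concentration gave 0 to 2 (2 without 1-year 3.75 nM replicate 8, against 1033 of all genes). Other scalings kept these counts. For age within the high run, 15 of 27 log2 fold changes turned sign; among them were myhz2 -0.31, TNNT1 -0.13, pvalb4 -0.84, the ACTA1 copy ENSDARG00000036371 -1.09 and actc1b -0.50. For age, pvalb4 was also -0.37 without the fish above 3% and -0.035 (without 3-year replicate 3) to 0.93 when each fish was left out. For concentration, 9 of 27 turned sign within the high run and 2 within the low run; pvalb4 was 0.165 within the high run, 0.051 without the fish above 3% and -0.53 to 0.02 when each fish was left out. The value of mb was 0.68 within the low run, 0.06 without the fish above 3% and -0.32 to 0.18 when each fish was left out, and smyhc1 was 0.39 within the low run. Leaving out each fish, myhz2 ran from -0.70 to 0.017 and atp2a1 from -0.81 to 0.084, the upper ends, as for pvalb4 and mb, without 1-year 3.75 nM replicate 8. The cause was not tested. With 4 or 5 fish per group within a run, and a biological coefficient of variation of 0.432 over all fish, the number of fish and their spread limit what these fits can call.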
